A study of Mus musculus with 6 samples.

Results

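The members described here are 1939 transcripts that the deposited long noncoding RNA (lncRNA) table of mouse aortic vascular smooth muscle cells (VSMCs) classes as intergenic. They were taken from 31550 distinct transcripts, 18480 of them in the intergenic class, by asking for at least 0.1 FPKM (fragments scaled to transcript length and library size) in at least 3 of the 6 libraries. The limit left 1989, and 50 of those were left out by name: Malat1, Neat1, Mir143hg, H19, Meg3, Pvt1, Gas5, 2410006H16Rik and the Snhg genes. Just inside the limit stood AK034810, with a deciding library at 0.10 FPKM, and AK019768 at 0.101 FPKM. Just outside stood XLOC_005131 at 0.0996 FPKM and AK050984 at 0.0994 FPKM.

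VSMCs are the contractile cells of the vessel wall. Here they came from the aorta of C57BL/6 mice, grew with 10% serum and were collected 48 h after adenovirus, per the labels. The groups are 3 libraries titled ADV, labelled as a Myocd knockdown, and 3 titled Ctrl, labelled as a negative control virus. Elsewhere the second group is called wildtype, so whether its cells received virus is not certain. Whether the 3 libraries of each group are separate cultures is not stated, so p-values measure no more than the scatter among these libraries, part or all of which may be technical. Myocd, the coactivator of serum response factor named as the target, was at 131.7, 130.1 and 145.5 FPKM under the ADV label and at 0.0355, 0 and 0.125 FPKM under the Ctrl label. That is against the label of a knockdown, so "higher" and "lower" below only compare libraries labelled ADV with libraries labelled Ctrl. Acta2, the smooth muscle actin, stood at 346, 332 and 342 FPKM against 63.1, 67.1 and 71.5 FPKM, while Myh11 and Cnn1, which mark mature smooth muscle, were at 0.353 FPKM or less in every library. The smooth muscle markers summed to 391 to 412 FPKM against 115 to 138 FPKM, the fibroblast markers to 59.5 to 70.7 against 59.7 to 70.2 FPKM and the mesothelial markers to 302 to 325 against 320 to 352 FPKM. Smtn, of the smooth muscle list, overlapped at means of 56.5 and 57.6 FPKM (adjusted p = 0.904, limma). Lmod1 passed higher at means of 0.733 and 0.0774 FPKM (adjusted p = 0.0383, limma). Tagln, at 7.52 and 0.637 FPKM, did not pass (adjusted p = 0.0556, limma). The fibroblast sums came mostly from Col1a1 (means of 39.8 and 41.6 FPKM) and Pdgfra (16.1 and 16.2 FPKM). Dcn, of that list, was higher without overlap at means of 5.61 and 3.29 FPKM but did not pass (adjusted p = 0.126, limma). The mesothelial sums came mostly from Krt19 (means of 232 and 256 FPKM) and Msln (80.0 and 75.9 FPKM), with Upk3b, Wt1 and Lrrn4 at 1.05 FPKM or less in every library. The endothelial markers summed to 1.3 to 2.19 against 0.469 to 0.953 FPKM, of which Vwf stood at 1.16, 0.963 and 1.61 against 0.102, 0.146 and 0.306 FPKM and passed higher (adjusted p = 0.0346, limma), with Kdr and Tie1 at or near 0. The macrophage markers summed to 3.44 to 5.53 against 2.02 to 4.48 FPKM, with Ptprc and Itgam at or near 0. What part cell make-up had in the results was not tested, and in bulk RNA fewer cells of a type and less RNA per cell cannot be told apart. Each library gave 7528151 to 9793782 fragments over coding genes and 1028765 to 1464414 over lncRNAs, of which the members held 50.7% to 59.5%.

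Intergenic lncRNAs are transcribed from ground between coding genes. Some act on chromatin near their own gene, some host microRNAs, and some belong to machines of protein and RNA synthesis, while for most no function is known. The class is one of position in an annotation, so it can also gather structural RNAs and pieces of transcripts that run on past a coding gene.

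Sequences could be shown for members that the RefSeq tables (build GRCm38.p6, which matches the coordinates of the files) hold by symbol. Promoter windows, from 250 bases before to 50 bases after the start, were found for 142 member gene names, which cover 220 members. The first 3 windows below are shown because each of these genes holds 2 transcripts whose differences have opposite signs, and the fourth because it is the one window of a called member with a CArG box, the site of serum response factor. All are written 5′ to 3′ on the strand of the gene, with matches to the motifs searched in capitals.
AA465934, chr11:83291449-83291748, plus strand: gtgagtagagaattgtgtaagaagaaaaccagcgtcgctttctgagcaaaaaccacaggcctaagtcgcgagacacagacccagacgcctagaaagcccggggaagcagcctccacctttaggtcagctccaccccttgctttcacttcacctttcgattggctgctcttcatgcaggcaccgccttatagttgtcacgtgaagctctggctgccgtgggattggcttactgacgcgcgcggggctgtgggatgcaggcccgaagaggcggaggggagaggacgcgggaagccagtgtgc
1300002E11Rik, chr16:21794097-21794396, plus strand: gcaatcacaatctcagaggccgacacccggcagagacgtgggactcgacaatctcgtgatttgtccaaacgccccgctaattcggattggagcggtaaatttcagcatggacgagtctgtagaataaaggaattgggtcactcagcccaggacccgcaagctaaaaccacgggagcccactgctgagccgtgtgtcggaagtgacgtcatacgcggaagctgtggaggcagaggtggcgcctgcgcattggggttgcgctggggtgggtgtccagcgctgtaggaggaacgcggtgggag
2610035D17Rik, chr11:113201789-113202088, minus strand: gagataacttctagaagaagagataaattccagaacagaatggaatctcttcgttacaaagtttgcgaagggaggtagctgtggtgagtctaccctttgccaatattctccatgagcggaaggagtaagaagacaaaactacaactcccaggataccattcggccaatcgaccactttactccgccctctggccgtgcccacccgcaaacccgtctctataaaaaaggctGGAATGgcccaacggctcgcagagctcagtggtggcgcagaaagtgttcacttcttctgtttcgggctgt
Gm13391, chr2:6465829-6466128, plus strand: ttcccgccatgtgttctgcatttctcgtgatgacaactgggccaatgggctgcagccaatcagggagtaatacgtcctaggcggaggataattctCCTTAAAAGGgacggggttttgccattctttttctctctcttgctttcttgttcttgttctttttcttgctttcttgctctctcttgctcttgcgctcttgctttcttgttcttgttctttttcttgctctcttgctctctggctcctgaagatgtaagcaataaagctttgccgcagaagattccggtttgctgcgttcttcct

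The motifs below were searched on both strands, and no window printed here matches more than 1 of them: the CArG box (CC, 6 bases of A or T, GG), the TEAD motif GGAATG and the AP-1 motif TGANTCA. The CArG box lay in 2 of 169 member windows (1.18%) against 1.63% of all 32851 windows of the table. The TEAD motif lay in 26 of 169 (15.4%) against 14.7%. The AP-1 motif lay in 28 of 169 (16.6%) against 7.81%, with a median GC content of 52.0% in the member windows and 52.7% in all. In Gm13391 the CArG box begins 155 bases before the start, and in 2610035D17Rik the TEAD motif begins 20 bases before it. The Gm13391 transcript measured here, ENSMUST00000147685, lies at chr2:6472000-6478619, away from that start, and had 0 fragments in the libraries labelled ADV and 3 in those labelled Ctrl. A second RefSeq window of Gm13391 matched none of the motifs. A match to these letters is a description of the window and shows no binding.

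Several members host microRNAs, the short RNAs that pair through their seed (bases 2 to 8, in capitals) with messenger RNAs. In all, 68 member gene names had a RefSeq microRNA inside the locus on the same strand. The mature sequences from 4 host loci follow, since transcripts of these loci are described below. The libraries do not measure the mature microRNAs.
miR-22-3p, in Mir22hg: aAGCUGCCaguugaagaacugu
miR-17-5p, in Mir17hg: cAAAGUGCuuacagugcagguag
miR-20a-5p, in Mir17hg: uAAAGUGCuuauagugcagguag
miR-100-5p, in 2610203C20Rik: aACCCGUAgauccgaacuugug
miR-125b-5p, in 2610203C20Rik: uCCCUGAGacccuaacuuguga
miR-15a-5p, in Dleu2: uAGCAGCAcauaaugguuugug
miR-16-5p, in Dleu2: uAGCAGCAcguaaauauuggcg
The 2 Mir17hg products share the seed AAAGUGC, and the 2 Dleu2 products share the seed AGCAGCA.

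The 1939 members carry 1714 gene names. Genbank sequences account for 1097 of them, Ensembl for 310, a catalogue of Alexander and colleagues for 260, UCSC for 133, RefSeq for 125 and one of Lei Sun and colleagues for 14. Their class name did not hold everywhere against the RefSeq annotation: the loci of 776 members overlap a protein-coding gene on either strand, 496 overlap a lncRNA gene and no coding gene, and 590 overlap no gene. A locus in the table can be far larger than its transcript, so an overlap of loci need not be one of exons. Another lncRNA transcript shared the locus and strand of 946 members, and whether strand was used in the counting is not given in the sources used here.

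Most members were low. Their median level was 0.540 FPKM, with 643 at a mean of at least 1 FPKM, 99 at 10 FPKM or more and 10 at 100 FPKM or more. The median number of recovered fragments was 44 per transcript over the 6 libraries together. An FPKM of at least 0.1 was reached in every library by 1086 members, and in exactly 3 libraries by 322. Of those 322, 110 passed in just the 3 libraries of 1 group, so these had to differ between the groups to be members at all.

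The highest members are structural RNAs, not typical lncRNAs. Rn7sk, the 7SK RNA that holds back the elongation factor P-TEFb (chr9:78175303-78175633), stood at 60005, 44014 and 58585 FPKM under the ADV label and at 52892, 52544 and 56660 FPKM under the Ctrl label. The groups overlapped, and the second library labelled ADV was the lowest of the 6. Rn45s, the precursor of ribosomal RNA (locus chr17:39842995-40064883), stood at 8319.5, 8137 and 7295 FPKM against 10522, 10410 and 8909.5 FPKM. All 3 libraries labelled ADV lay below the others, but the difference of -0.33 ± 0.11 (log2 of FPKM + 0.1, standard error SE) had an adjusted p of 0.227 in limma. Ribosomal RNA had been depleted from these libraries, per the labels. Rn45s and Rn7sk together held 85.7% to 90.1% of all member fragments in a library.

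Metazoa_SRP, which lies on RefSeq's Rn7s2 (the 7SL RNA of the signal recognition particle, chr12:69361182-69361481), showed a spread of another kind. Its levels were 3300 (replicate 1), 3255 and 8686 FPKM in the libraries labelled ADV and 2943, 2982 and 8485 FPKM under the Ctrl label. The replicate 3 library was the highest in both groups. Gm22179 (chr6:69516339-69516629) was highest in the same 2 libraries, with 221, 228 and 408 FPKM against 216, 238 and 401 FPKM. Rprl3, named as a ribonuclease P RNA by RefSeq, was lowest in the same 2 libraries, at 389, 346 and 266 FPKM against 403, 362 and 173 FPKM. Vaultrc5, a vault RNA with a listed length of 143 bases, stood at 1563, 1770 and 2224 FPKM against 2390, 2495 and 2705 FPKM, without overlap (adjusted p = 0.192, limma). Its recovered fragments, not scaled to depth, did overlap, at 58, 67 and 85.1 against 82.55, 79.4 and 113.7. On fragments the log2 difference was -0.23 (adjusted p = 0.775, edgeR). Gm24447 (chr15:93234363-93234700) stood at 177, 5596 and 463 FPKM against 160, 144 and 410 FPKM. A single library, the one in which Rn7sk was lowest, held 7579 of its 9500 fragments. Among the other libraries, those of replicate 3 were again the highest. Rn7sk and Metazoa_SRP belong to families with many near-identical copies in the genome, so which copy their fragments came from is uncertain.

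**Figure D1:**
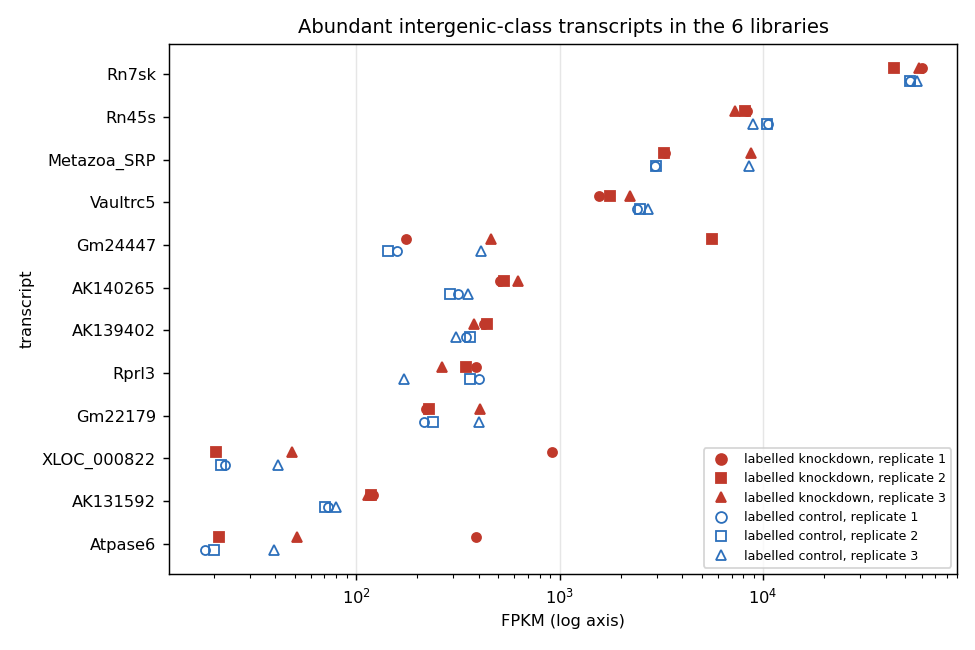
FPKM (log axis) of the 10 most abundant members, AK131592 and Atpase6 in each library, 1 symbol per library and 1 row per transcript. Filled red symbols are the ADV libraries (labelled knockdown) and open blue symbols the Ctrl libraries (labelled control). AK140265, AK131592 and AK139402 lie higher and Rn45s and Vaultrc5 lower in all ADV libraries, of which the first 2 passed the test, replicate 3 (triangles) stands apart for Metazoa_SRP and Gm22179, and 1 library stands apart for Gm24447, XLOC_000822 and Atpase6.

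In all, 3 members lie on the mitochondrial genome, and 2 of them were higher in the libraries labelled ADV. AK140265 (chrM:70-1024) has the locus of mt-Rnr1, the 12S ribosomal RNA of the mitochondrial ribosome. The listed length of the transcript is 783 of the 955 bases of that locus. It stood at 507, 536 and 624 FPKM against 316, 289 and 355 FPKM. All libraries labelled ADV were above all those labelled Ctrl, with means of 556 ± 60.9 and 320 ± 32.9 FPKM (SD, n = 3), a 1.74-fold difference (log2 0.80 ± 0.12, adjusted p = 0.0239, limma). AK131592 (chrM:15356-16294, plus strand) has a locus that begins at the coordinates of the transfer RNA TrnP, whose strand was not compared. It runs through the control region, where mitochondrial transcription starts. Its levels of 121, 118 and 114 FPKM lay above 72.9, 70.4 and 79.5 FPKM, a 1.59-fold difference (log2 0.67 ± 0.08, adjusted p = 0.0132, limma).

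AK139402, listed at the same place on the minus strand, stood at 428, 438 and 380 FPKM against 346, 362 and 308 FPKM. The groups did not overlap, but the difference of 0.29 ± 0.10 did not pass (adjusted p = 0.221, limma). Among the mitochondrial coding genes 3 of 12 tested passed higher and none lower, beside 1.83% and 1.61% of all coding genes: mt-Nd1 (1.28-fold, adjusted p = 0.0382), mt-Nd2 (1.20-fold, adjusted p = 0.0106) and mt-Cytb (1.12-fold, adjusted p = 0.0483), all in limma. The summed level of those coding genes overlapped between the groups, and what part the mitochondrial RNA as a whole had in the 2 members was not tested. Both passed in DESeq2 (adjusted p = 0.00162 for AK140265 uc009vev.1 and 0.000244 for AK131592 AK131592). Both calls were lost in edgeR (0.0876 and 0.0759), in limma without trend (0.146 and 0.173), without both replicate 3 libraries (0.0807 each), and without ADV replicate 2 (0.0844 and 0.0582), Ctrl replicate 1 (0.0924 and 0.0593) or Ctrl replicate 2 (0.0818 and 0.0538). AK140265 was also lost without ADV replicate 3 (0.0509) and over locus sums of fragments (0.0607 in limma, beside 0.0206 for AK131592). With the replicate number as a block, 0 members were called. Of 23 alternatives to the main test, 10 called AK140265 and 13 called AK131592. Quantile normalization lowered the differences to 0.41 and 0.42 on the log2 scale, and neither then passed (0.352 and 0.0976).

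A pair of members on chromosome 1 stood apart in 1 library. XLOC_000822 (chr1:24615670-24616192) was at 919, 20.6 and 48.5 FPKM under the ADV label and at 22.7, 21.8 and 41.3 FPKM under the Ctrl label. Atpase6 (chr1:24613966-24614812) was at 388, 21.3 and 51.2 FPKM against 18.0, 20.1 and 39.4 FPKM. Atpase6 overlaps the RefSeq pseudogene Gm10925 and bears the name of a mitochondrial gene. In the library where both were high, mt-Atp6 was at 0.000958 FPKM against 135 to 758 FPKM in the other 5, and mt-Co2 at 47.6 FPKM against 1139 to 3154 FPKM. Neither member passed the test (adjusted p = 0.592 and 0.524, limma), and what part the assignment of reads between the copies had in these values was not tested. Atpase6 was chosen after its values were seen.

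Over all members, 75 of 1939 passed at an adjusted p under 0.05 in limma, adjusted over all 4955 lncRNA transcripts tested, with 42 higher and 33 lower in the libraries labelled ADV. That is 3.87% of the members, beside 4.26% of all lncRNA transcripts tested (2.22% higher, 2.04% lower) and 3.44% of coding genes (1.83% higher, 1.61% lower). The members called higher were 2.17% and those called lower 1.7%. The median log2 difference of the members was 0.00016, and that of all tested lncRNAs 0.0035. Groups did not overlap for 248 members higher (12.8%, beside 12.7% of all lncRNA transcripts) and 217 lower (11.2%, beside 10.7%). At an unadjusted p under 0.05 there were 301 members (15.5%, beside 16.2%). The share called was 4.02% of the intergenic class with the named genes kept in, 3.35% of natural antisense, 4.46% of exon sense-overlapping, 4.65% of intron sense-overlapping, 5.08% of intronic antisense and 5.61% of bidirectional transcripts. So the members' share lay near the background on each of these counts. Of the 75, 66 are among the 110 that passed the level limit in just 1 group, and a call of those gives no support. They are the called members with every library of 1 group under 0.1 FPKM, such as Gm13264 and DQ713317 below.

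Calls were most frequent where fragments were few. Members with under 10 fragments over the 6 libraries were called in 18.3% of cases (44 of 240), those with 10 to 30 in 2.81%, those with 30 to 100 in 1.59%, those with 100 to 300 in 0.896% and those with 300 or more in 1.52%. The median called member had 8 fragments, and 42 had at most 9 in the higher group. In 59, every library of the lower group was under 0.001 FPKM, written below as near 0, so the log2 difference depends on the added 0.1 FPKM and bounds no fold. Gm13264 is an example: its 0.972, 1.94 and 2.04 FPKM against 0 in each library labelled Ctrl come from 5 fragments in all. DQ713317, with 0 against 3.16, 2.24 and 2.83 FPKM, rests on 8. The quasi-likelihood test of edgeR called 0 of the 841 members deep enough for it (97 at an unadjusted p under 0.05, lowest adjusted p 0.0759), and 1 lncRNA transcript of any class (0.0431%). DESeq2 called 12 (0.794%, beside 1.54% of all lncRNA transcripts), of which 8 were higher and 4 lower, and 11 of them were among the 75. Without the second library labelled ADV, limma called 2 members.

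**Figure D2:**
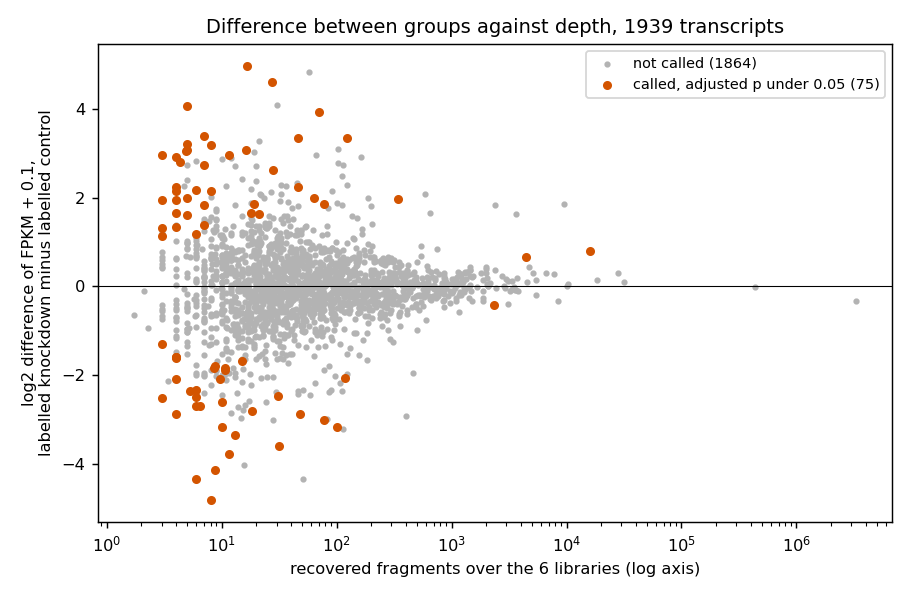
Log2 difference of FPKM + 0.1 (ADV minus Ctrl) against the recovered fragments over all 6 libraries (log axis), 1 point per member. The 75 called members, in orange, lie mostly below 100 fragments, and the spread of all members narrows to the right.

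Of the 75 called, 13 had at least 10 fragments in 3 libraries (1.54% of 846 such members, beside 2.24% of all lncRNA transcripts that deep), and these are described next with the mitochondrial pair already given. AK089363 (chr8:84200869-84203049, with Zswim4 7.9 kb away as nearest coding gene) stood at 15.2, 15.2 and 15.5 FPKM against 20.8, 20.9 and 20.1 FPKM. Every library labelled ADV lay below every other one, a difference of -0.43 ± 0.08 (adjusted p = 0.0497, limma; 0.0759 in edgeR and 0.0600 in DESeq2). AK144104 (locus chr10:103507368-103566565) stood at 5.39, 5.14 and 8.35 FPKM against 1.94, 1.17 and 1.87 FPKM, without overlap. The difference was 1.86 ± 0.29 (adjusted p = 0.0259, limma), from 60 against 18 fragments, and was lost in edgeR (adjusted p = 0.139). AK039449 (locus chr9:7214754-7218493, inside the RefSeq span of Dcun1d5) stood at 0.299, 0.137 and 0.280 FPKM against 0.989, 1.52 and 1.40 FPKM (-2.07 ± 0.36, adjusted p = 0.0370, limma; 0.0775 in edgeR). Its locus holds 1 more transcript, and the fragments of the locus were 131 against 153 (adjusted p = 0.883, limma).

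Gm13431 (locus chr2:36216777-36222934, which overlaps RefSeq's Ptgs1, the gene of cyclooxygenase 1) has 3 transcripts. ENSMUST00000147012 stood at 5.97, 8.72 and 13.5 FPKM against 2.51, 2.13 and 1.87 FPKM (1.99 ± 0.31, adjusted p = 0.0262, limma). ENSMUST00000122948 had 4.46, 2.61 and 5.91 FPKM against 7.16, 5.54 and 8.16 FPKM, and the sum over the locus was 93 against 86 fragments. XLOC_010800 TCONS_00013589, listed on the strand opposite to Rn45s at the ribosomal DNA locus, was at 33.4, 37.0 and 62.4 FPKM against 7.44, 10.7 and 16 FPKM (1.96 ± 0.35, adjusted p = 0.0396, limma). The longer TCONS_00013586 of the same gene was at 11.4, 12.2 and 13.0 FPKM against 14.8, 15.2 and 18.0 FPKM, and the locus sum had the opposite sign (-0.11 ± 0.12). The gene sum of these 2 transcripts stayed higher but did not pass (1.02 ± 0.25, adjusted p = 0.108, limma). AK038070 (locus chr4:119733784-120138045, over Hivep3) stood at 1.71, 1.75 and 1.22 FPKM against 0.318 FPKM and near 0 in the others, with an adjusted p of 0.0497 in limma. The call was lost in edgeR (adjusted p = 0.270) and DESeq2 (adjusted p = 0.0934). The sum over its locus did not pass (2.38 ± 1.69, adjusted p = 0.532, limma).

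Several large differences appeared where 2 transcripts of 1 locus had opposite signs, and in AA465934 and Gm12603 transcripts of 1 gene were called in both directions. AK008456 and the called transcripts of AA465934, 2610035D17Rik, 1300002E11Rik, XLOC_009754 and Gm12603 passed the level limit in just 1 group. Their p-values, given below, therefore lend no support. AA465934 (locus chr11:83291699-83405035) overlaps the locus of Ap2b1, a clathrin adaptor subunit. Its transcript NR_028363 stood at 3.10, 2.59 and 3.5 FPKM under the ADV label and near 0 in all those labelled Ctrl (4.97 ± 0.31, adjusted p = 0.00606, limma). ENSMUST00000176545 was at 1.72, 1.59 and 1.88 FPKM in the libraries labelled Ctrl and at no more than 0.0124 FPKM in the others (-4.14 ± 0.32, adjusted p = 0.0104, limma). These rest on 16.5 and 8.68 fragments. Summed over the gene, the level was 4.09, 3.48 and 6.34 FPKM against 3.82, 3.10 and 5.19 FPKM, which overlap (0.18 ± 0.29, adjusted p = 0.806, limma).

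At chr8:86062433-86064250, inside the RefSeq span of Phkb, AK008456 and XLOC_023881 TCONS_00032324 share a locus and strand. AK008456 stood at 0.844, 0.798 and 0.619 FPKM against near 0, and XLOC_023881 at 0.103, 0.0143 and near 0 against 1.89, 1.23 and 1.46 FPKM. Both passed, at 3.08 ± 0.31 and -3.60 ± 0.42 (adjusted p = 0.0107 and 0.0131, limma), and the locus sum of 17 against 31 fragments did not (adjusted p = 0.463, limma). 2610035D17Rik, with the TEAD match shown above, had NR_015556 at 0.843, 0.851 and 1.06 FPKM against near 0 (3.34 ± 0.31, adjusted p = 0.0107, limma). Its transcript uc011ygz.1 had near 0 against 1.11, 0.207 and 0.280 FPKM (adjusted p = 0.0975, limma), and the locus held 49 against 47 fragments.

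1300002E11Rik (chr16:21794347-21809039) followed the same form. NR_037957 was at or near 0 (0.00273 FPKM at most) against 0.445, 0.999 and 1.15 FPKM (-3.17 ± 0.42, adjusted p = 0.0182, limma), while ENSMUST00000181960 was at 7.26, 7.5 and 5.79 FPKM against near 0, 5.12 and 1.86 FPKM (adjusted p = 0.415, limma). The locus gave 179 against 195 fragments. In XLOC_009754, a locus of 17 transcripts on chromosome 16, TCONS_00012318 was near 0 against 0.924, 1.03 and 0.361 FPKM (-3.02 ± 0.44, adjusted p = 0.0234, limma). TCONS_00012320 of the same gene stood at 1.16, 0.860 and 0.907 FPKM against near 0, near 0 and 0.601 FPKM (adjusted p = 0.224, limma). Gm12603, which RefSeq calls Wincr1, had 2 transcripts called higher and 1 called lower, on 4.31 to 11.7 fragments.

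**Figure D3:**
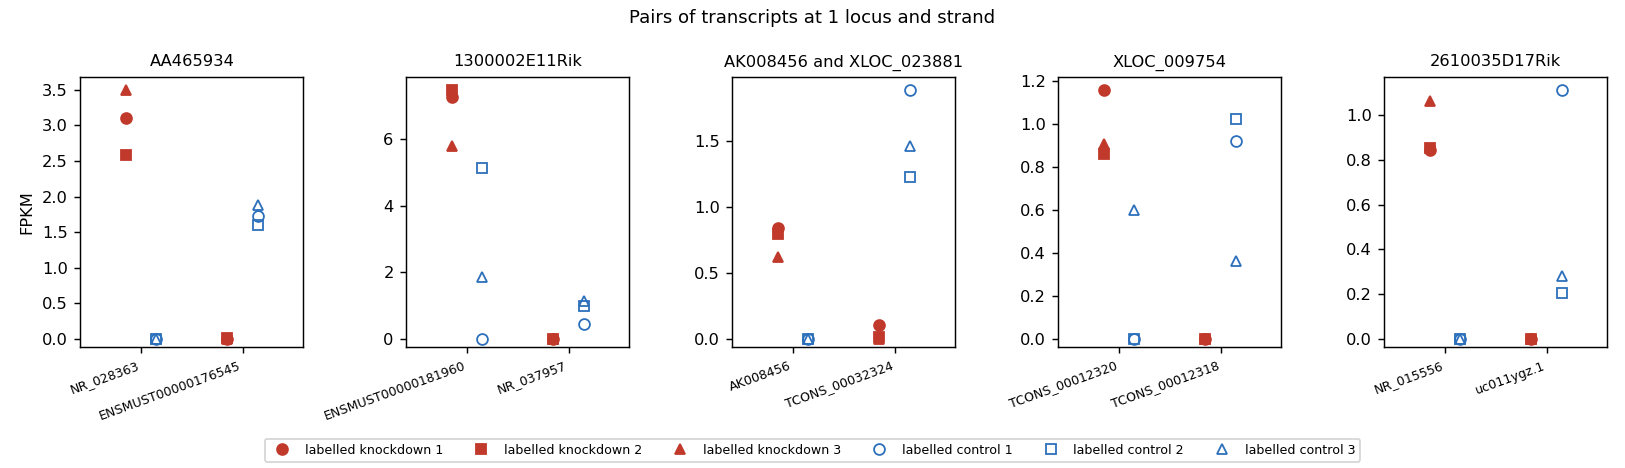
FPKM of a pair of transcripts at each of 5 loci, 1 symbol per library. Filled red symbols are the ADV libraries (labelled knockdown) and open blue symbols the Ctrl libraries (labelled control). In each panel the transcript on the left is higher in the libraries labelled ADV and the one on the right is at 0.103 FPKM or less there.

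Over the 46 called members that share their locus and strand with another lncRNA transcript, the locus sum was called for 0 in limma, had the same sign for 26, and differed by under 0.5 in log2 for 23. XLOC_012699 TCONS_00017153 (chr2:27441978-27444253, over RefSeq's Brd3os, a coding gene there) is a deeper member, at 1.03, 1.61 and 2.05 FPKM against 0.0115 FPKM at most (3.93 ± 0.38, adjusted p = 0.0107, limma), with a locus sum of 97 against 128 fragments. Its gene sum, over 2 of the transcripts, stayed higher at 1.03, 2.03 and 2.30 FPKM against 0.521, 0.280 and 0.495 FPKM. That sum did not overlap and did not pass (1.79 ± 0.40, adjusted p = 0.0840, limma). AK086065 (chr13:17699436-17703252) was near 0 against 0.591, 0.727 and 0.593 FPKM (-2.88 ± 0.29, adjusted p = 0.0111, limma), with a locus sum of 133 against 101 fragments. BC025067 (chr3:123507552-123508336, the place of RefSeq's Snhg8) stood at 2.12, 5.48 and 1.05 FPKM against near 0 (4.6 ± 0.62, adjusted p = 0.0184, limma), with 239 against 331 fragments over the locus. XLOC_012699 TCONS_00017153, AK086065 and BC025067 also passed the level limit in just 1 group, so their p-values lend no support. Which transcript of a locus the fragments were given to was the authors' estimate, and its part in these differences was not tested. Called members alone at their locus numbered 29, most of them on few fragments: XLOC_008027, at 0 against 3.23, 2.29 and 0.962 FPKM, had 6, and AK013539, at 0 against 1.41, 1.19 and 0.272 FPKM, had 10.

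Well-known regulators among the members did not pass the test. Of 70 symbols in the lists, 28 are in the table and 11 are members, with 31 transcripts: 0 were called, beside 4.26% of all lncRNA transcripts, 4 did not overlap between the groups, all lower, beside 12.7% of all lncRNA transcripts higher and 10.7% lower, and their median log2 difference was -0.10 (0.0035 over all tested lncRNAs). No member came from the vascular and muscle list. Tug1, which acts in the nucleus on chromatin regulators, had its main transcript ENSMUST00000153313 at 23.7, 22.9 and 22.6 FPKM against 30.1, 26.7 and 30 FPKM. The groups did not overlap (-0.32 ± 0.09, adjusted p = 0.148, limma), and its locus also holds Morc2a on the other strand. Summed over its 3 transcripts, Tug1 was at 28.1, 27.2 and 26.7 FPKM against 33.4, 31.3 and 33.4 FPKM (adjusted p = 0.203, limma).

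Among the microRNA hosts, Mir22hg ENSMUST00000149940 stood at 36.5, 36.9 and 35.0 FPKM against 38.0, 38.3 and 40.1 FPKM (adjusted p = 0.586, limma), and ENSMUST00000134345 at 14.6, 19.7 and 17.7 FPKM against 20.1, 20.2 and 29.2 FPKM (adjusted p = 0.389, limma). Neither overlapped between the groups. The locus of Mir17hg in the files holds the cell-cycle cluster of miR-17 and miR-20a. RefSeq places Mir17hg itself at chr14:115044390-115046728. The miR-17-5p and miR-20a-5p shown begin at 115043684 and 115044183, before that start, so this RefSeq span holds neither. Mir17hg NR_029382, the RefSeq transcript of 2339 bases, stood at 1.51, 0.649 and 1.81 FPKM against 3.16, 3.07 and 2.84 FPKM. The groups did not overlap (-1.24 ± 0.38, adjusted p = 0.181, limma), and summed over its 3 transcripts the levels were 2.60, 2.80 and 3.61 FPKM against 4.43, 4.6 and 3.42 FPKM, which overlap. 2610203C20Rik, today Mir100hg in RefSeq and so missed by the list, was named after its values were seen. Its ENSMUST00000181296 was the highest of these at 74.2, 74.3 and 70.8 FPKM against 68.2, 65.9 and 64.0 FPKM, without overlap (0.15 ± 0.07, adjusted p = 0.394, limma).

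Dleu2, host of miR-15a and miR-16, had uc007ugi.2 at 4.05, 3.26 and 2.47 FPKM against 4.50, 3.84 and 3.16 FPKM. 1700020I14Rik, also called Cyrano or Oip5os1, a conserved lncRNA that holds miR-7 in check, summed to 22.8, 21.1 and 20 FPKM against 22.1, 22.3 and 21.6 FPKM over 4 transcripts. Its shorter transcript NR_027832 ran from 0.539 to 6.49 FPKM within the libraries labelled ADV, so the split was less steady than the sum. Terc, the template RNA of telomerase, stood at 16, 17.2 and 12.9 FPKM against 20.1, 15.2 and 13.9 FPKM. The values of these 3 genes overlapped between the groups. Hotair, a lncRNA of the HoxC cluster, stood at 1.31, 0.894 and 0.465 FPKM against 1.04, 1.0 and 1.27 FPKM. Ftx, from the X inactivation centre, had ENSMUST00000156211 at 3.30, 3.07 and 3.44 FPKM against 3.28, 2.18 and 2.65 FPKM. Jpx, beside it, summed to 0.470, 1.22 and 0.130 FPKM against 0.943, 1.24 and 2.82 FPKM. Neither X-linked gene separated the groups. Airn, which silences Igf2r on one parental copy, stood at 2.52, 2.17 and 3.64 FPKM against 2.63, 2.81 and 3.44 FPKM. Dancr summed to 2.98, 2.2 and 2.25 FPKM against 1.46, 1.77 and 3.04 FPKM. The groups overlapped for Hotair, Airn and Dancr too, and a p above the threshold does not show that levels were equal.

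**Figure D4:**
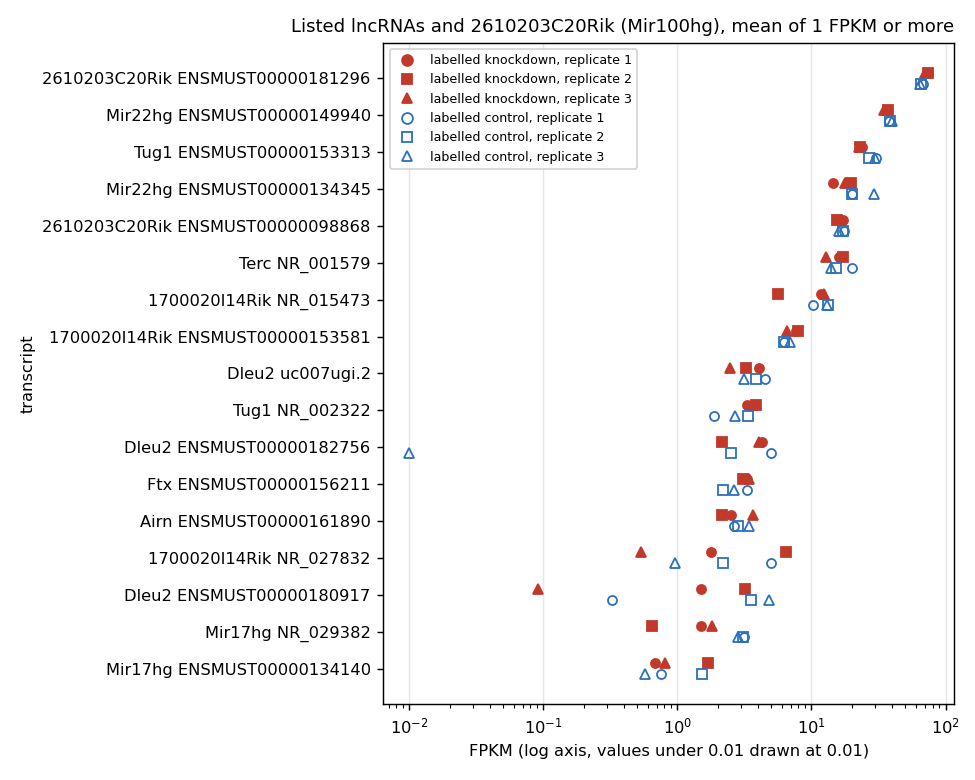
FPKM (log axis) per library of the transcripts of listed lncRNAs and of 2610203C20Rik with a mean of at least 1 FPKM, 1 symbol per library, values under 0.01 drawn at 0.01. Filled red symbols are the ADV libraries (labelled knockdown) and open blue symbols the Ctrl libraries (labelled control). Tug1 ENSMUST00000153313, Mir17hg NR_029382, both Mir22hg transcripts and 2610203C20Rik ENSMUST00000181296 separate the groups without passing the test, and transcripts of Dleu2 and 1700020I14Rik spread within a group.

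Position beside coding genes was the last property looked at. The locus of 405 members overlaps that of a coding gene of the mRNA table, 813 lie within 5 kb of one, 512 at 5 to 50 kb and 209 farther. The share called was 4.69%, 2.34%, 5.66% and 3.83% in that order, beside 3.87% of all members and 4.26% of all lncRNA transcripts, and the differences between these shares were not tested. Of the 813, 511 lie after the end of that gene on its strand, as 780 of all members do. The nearest coding gene was high enough to test for 1478 members and called for 52 of them, beside 3.44% of all coding genes. Some of the 52 members share a gene, such as Inhba or Thbs2, so they do not count distinct genes. Both were called for 5 of the 52, beside calls for 3.87% of all members. These 5 were the mitochondrial pair with mt-Nd1 and mt-Cytb, AK043332 with Papola, XLOC_006426 with Inhba and XLOC_007839 with Ccdc122.

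AK043332 (locus chr12:105784694-106170243) stood at 0.578, 0.375 and 0.626 FPKM against near 0 (2.62 ± 0.31, adjusted p = 0.0136, limma), while Papola, a poly(A) polymerase, had means of 63.4 and 80.3 FPKM (adjusted p = 0.0235, limma). XLOC_006426 and XLOC_007839 rest on 5 and 6 fragments. Like AK043332, both passed the level limit in just 1 group, so these calls give no support. Inhba, which encodes a subunit of activin, had means of 15.4 and 11.4 FPKM (adjusted p = 0.0466, limma). AK035610 (chr13:16028820-16031607), 1.6 kb after its end on the same strand, stood at 9.06, 10.7 and 10.4 FPKM against 7.84, 8.49 and 7.53 FPKM, without overlap (0.33 ± 0.12, adjusted p = 0.254, limma). Ctgf, a matricellular growth factor gene, had means of 34.4 and 14.7 FPKM, and Gm15270 at its locus had 6 fragments in all. Cdkn1a, the p21 cell-cycle inhibitor, had means of 163 and 135 FPKM, and Gm16197, 12.0 kb away, 1.98 and 1.58 FPKM (adjusted p = 0.561, limma). B3gnt2, a glycosyltransferase, had means of 24.0 and 10.4 FPKM, and Gm12056, 20.7 kb away, 4.79 and 4.08 FPKM (adjusted p = 0.731, limma). Gm12055, 25.6 kb from B3gnt2 on its strand, stood at 0.482, 0.815 and 0.928 FPKM against 0.297, 0.157 and 0.298 FPKM, without overlap (1.25 ± 0.40, adjusted p = 0.202, limma), on 13 against 5 fragments. These 5 members were not called, and they were chosen after their values were seen, for their neighbours. All 5 differed in the direction of the neighbour. Others, also not called and chosen after values were seen, went against theirs without overlap between the groups. AK158400 was higher (log2 1.28) beside Hist1h4d (-0.41), AK086981 (0.83) beside Zfp846 (-0.66) and AK085219 (0.79) beside D1Ertd622e (-0.77). AK189470 was lower (-0.73) at Mxd4 (0.71), and DQ727060 (-0.44) beside Zfp626 (0.93).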

How the data were processed

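RNA was measured in 6 libraries, 3 labelled Myocd knockdown and 3 labelled control. Per the submitters' processing notes, the tools were HISAT2 2.0.4, Cuffdiff 2.2.1, Cufflinks and cutadapt, and both mm10 and mm9 appear as builds. The authors deposited FPKM values per library, normalized by them, beside estimated counts. After removal of 1 scaling constant per library, 65.2% to 66.4% of these estimated counts in the lncRNA table came within 0.01 of whole numbers, and the results are called fragments here. The others are not whole, as estimates shared between transcripts need not be.

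Coordinates have 1 added to the start, which matches GRCm38 (mm10) for 6261 of 20206 genes, against 472 without it. FPKM is not a count, so the main test was limma 3.58.1 (R 4.3.3) with a trend on log2(FPKM + 0.1), two-sided, with Benjamini-Hochberg adjustment over the 4955 lncRNA transcripts with at least 0.1 FPKM in 3 libraries, and a threshold of 0.05. Coding genes (at least 0.5 FPKM in 3 libraries) were fitted apart. Alternatives were other pseudocounts, limits and scalings, edgeR 4.0.16 and DESeq2 1.42.0 on rounded fragments, sums over genes or loci, a replicate block and libraries left out. Scripts were tested on simulated data.

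Named members are the 10 largest rises and falls among those called with a group mean of at least 0.5 FPKM and no overlap, of which examples are printed, the 10 highest, the listed lncRNAs, and called members beside called genes. Called members with at least 10 fragments in 3 libraries and the second transcripts of their loci were chosen after the values were seen. So were the members not called beside Inhba, Ctgf, Cdkn1a, B3gnt2, Hist1h4d, Zfp846, D1Ertd622e, Mxd4 and Zfp626. The members and lists were chosen with earlier results of these data known. Sequences and gene types are from RefSeq (GRCm38.p6).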

Additional observations from a re-analysis of the deposited data

How the results depend on the processing

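Of the 75 members called, 42 were higher and 33 lower, and several alternatives moved these counts by more than 1.5 times. Higher and lower calls numbered 15 and 10 with a pseudocount of 1, 11 and 9 without the FPKM limit, 12 and 6 with a limit of 0.5 FPKM, 16 and 12 with a mean of at least 0.1 FPKM, and 27 and 15 over gene sums. They numbered 0 and 0 in edgeR, 8 and 4 in DESeq2, and 0 and 0 without both replicate 3 libraries, each group then having 2. Leaving out 1 library gave 1 to 33 higher and 1 to 23 lower, lowest without ADV replicate 2, and within 1.5 times of the full count for the 33 higher without ADV replicate 3 and the 23 lower without Ctrl replicate 3. Alternatives chosen after seeing the data gave 6 and 4 with at least 10 fragments in 3 libraries, 2 and 1 over locus sums, 0 and 0 in edgeR scaled to coding fragments, and 0 and 0 in edgeR without a count filter. A pseudocount of 0.05, quantile normalization, limma without trend and robust limma stayed within 1.5 times. For all lncRNA transcripts the 211 calls became 79, 88, 62 and 90 under that pseudocount and those limits, 1 in edgeR (also 1 when scaled to coding fragments and 1 without the count filter), 60 in DESeq2, 5 to 160 with 1 library left out, 1 without both replicate 3 libraries, 46 with at least 10 fragments and 28 over locus sums. The 400 coding genes called became 1160 in edgeR, 87 without both replicate 3 libraries and 46 to 190 with 1 library left out. The cause was not tested.

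Deviations of same-numbered libraries from the group means correlated at 0.012, -0.0062 and 0.026 over lncRNA transcripts. Over coding genes they correlated at 0.037, -0.0039 and 0.10. The replicate 3 libraries correlated best with each other in both sets, while ADV replicates 1 and 2 correlated best with another number. These correlations run over all features, so they cannot decide whether the numbers pair the libraries. Metazoa_SRP, Gm22179 and Rprl3 stood apart in both replicate 3 libraries. With the replicate number as a block, 0 members were called higher and 0 lower, 1 lncRNA transcript of any class and 243 coding genes.

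Over locus sums the sign turned for 20 of the 46 called members that share a locus, and over gene sums for 6 of the 26 that share a gene name, and none of these sums passed. Among the members named by the rule these were, over locus sums, XLOC_010800 TCONS_00013589 (-0.11), BC025067 (-0.32), XLOC_012699 (-0.24), Gm16046 (0.029), Gm11458 (-0.44), XLOC_009754 TCONS_00012318 (0.026), AK008456 (-0.64) and AK086065 (0.53), and over gene and locus sums AA465934 ENSMUST00000176545 (0.18 and 0.49), AI480526 (0.15 and 0.040) and 1300002E11Rik NR_037957 (1.42 and 0.012). The gene sums of Gm12603 ENSMUST00000146678 (1.59), 5730577I03Rik (0.21) and Gm4876 (-0.033) turned too. A sum adds up transcripts that the main values hold apart, and locus sums are also on another scale. The median member had 44 fragments over 6 libraries.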
